A study of Mus musculus with 32 samples.

Results

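The cytosolic ribosomal protein genes of the mouse were followed in sorted subdural CNS-associated macrophages (sdCAMs) and in whole brain tissue of the same animals 1 day after an experimental stroke. The members were all rows of the count tables whose symbol is Rpl or Rps followed by a number, with the paralog suffixes l, a, x and y, together with Rplp0, Rplp1, Rplp2 and Rpsa. This rule gave 89 of 33280 genes, 54 with symbols beginning Rpl for the large subunit and 35 beginning Rps for the small subunit. By the GENCODE M21 annotation 84 of them are protein coding and 5 (Rps12l1, Rps3a2, Rps3a3, Rpl6l and Rpl32l) are processed pseudogenes. Fau and Rack1, which also encode ribosomal proteins, fall outside the naming rule and are given separately.

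Wild-type C57BL/6JCrl mice received either vehicle, 20% hydroxypropyl-β-cyclodextrin (CTL, mice A2, A3, A4 and B1), or BLZ945, an inhibitor of the colony-stimulating factor 1 receptor that depletes brain macrophages, at 200 mg per kg by gavage for 7 days (mice C2, C3, C4 and D1). All mice were left for 8 weeks, in which the macrophages return, and then had a clot induced in the middle cerebral artery with thrombin. No mouse was without stroke, so the hemisphere opposite the clot (contra) is the reference for the hemisphere on its side (ipsi). From each of the 8 mice both hemispheres gave a tissue library and a library of sorted sdCAMs (Ly6C- Ly6G- CD11c- CD45+ CD11b+ CD206+, without the choroid plexus), 32 libraries in all. Replicates are separate mice.

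The ribosomal proteins assemble with ribosomal RNA into the small subunit, which decodes the messenger RNA, and the large subunit, which forms the peptide bond. Their messenger RNAs are among the most abundant of any cell, many begin with a run of pyrimidines known as the TOP motif through which mTORC1 and LARP1 control their translation, and their levels are usually held in balance because the proteins are used in equal numbers. A few members have a paralog (Rps27l, Rpl7l1, Rpl36al, Rpl22l1, Rpl39l, Rpl3l and Rpl10l) whose product resembles that of the parent gene and whose expression differs between cell types, Rpl3l being known from muscle and Rpl10l and Rpl39l from the testis.

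The sorted libraries of the ipsi hemisphere of A3 and C2, which the labels mark as degraded, held 54055 and 55155 counts and were left out, so CTL ipsi and BLZ945 ipsi sdCAMs rest on 3 mice each. The other 14 sorted libraries held 7397393 to 11081409 counts and the 16 tissue libraries 9288717 to 12781505. Sorted ipsi libraries had counts on 13623 to 15144 genes and sorted contra libraries on 15202 to 16431. For tissue of mouse A3 the labels and the count table name opposite hemispheres for the same 2 libraries. The labels were followed, and the effect of the other reading on the tests is stated where it matters. Wherever tissue mice are counted by side, A3 enters as labelled, and its direction would reverse under the other reading. Microglia markers were high in the sorted libraries, summing to 7234 to 28062 CPM (read counts scaled to library size) against 1838 to 10611 CPM for the 10 sdCAM markers, with P2ry12 at 1118 to 7003 CPM and Mrc1, the gene of the sorted CD206, at 344 to 2819 CPM. Endothelial markers summed to 855 to 2751 CPM in sorted contra libraries and 41.8 to 192 CPM in sorted ipsi libraries, oligodendrocyte markers to 987 to 6708 CPM and 229 to 844 CPM, and choroid plexus markers to 30.7 to 37713 CPM and 0.502 to 1513 CPM.

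The sequences of the paralogs and their parents are shown because the shares of each pair, given further on, rest on telling reads of the partners apart. The first 30 coding bases of 4 paralogs and their parents are printed with the bases that differ within each pair in capitals, read from GENCODE M21 transcripts on GRCm38 with the span and strand of the gene. The count tables may rest on another build.
Rps27l (chr9:66946086-66949516, plus strand): atgccCctGgcTaGAgatctGTtAcaCccT
Rps27 (chr3:90212522-90213651, minus strand): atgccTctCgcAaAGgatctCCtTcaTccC
Rpl7l1 (chr17:46773907-46782672, minus strand): atggCggAGgAAGGGgaAaGAaaaaaAaTT
Rpl7 (chr1:16101295-16104662, minus strand): atggAggCTgTTCCAgaGaAGaaaaaGaAG
Rpl36al (chr12:69182731-69184083, minus strand): atggtCaacgtAccAaaaacccgAAggacT
Rpl36a (chrX:134585654-134588062, plus strand): atggtGaacgtGccTaaaacccgCCggacA
Rpl22l1 (chr3:28805436-28807424, plus strand): atggcgccGCAgaaaGaCAAGAAgCcTaag
Rpl22 (chr4:152325742-152334071, plus strand): atggcgccTGTgaaaAaGCTTGTgGcGaag
Over the aligned coding sequence Rps27l was 76.7% identical to Rps27, Rpl7l1 57.6% to Rpl7, Rpl36al 87.7% to Rpl36a and Rpl22l1 69.6% to Rpl22. The longest stretch shared by the principal transcripts of a pair was 11 bases for Rps27l and Rps27, 11 for Rpl7l1 and Rpl7, 24 for Rpl36al and Rpl36a and 26 for Rpl22l1 and Rpl22, shorter than the reads of 50 bases. Reads can also match other genes, since of the 50-base stretches in annotated transcripts 58.9% of Rpl22l1, 85.5% of Rpl36a, 49.3% of Rpl7 and 46.2% of Rps27 also occur in another annotated gene. The values were 5.16% for Rpl22, 22.1% for Rpl36al, 7.48% for Rpl7l1 and 16.2% for Rps27l. The pair shares can therefore depend on how reads with several matches were counted.

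Most members were well expressed in both materials. Levels are CPM after TMM scaling, which adjusts library totals for composition. In sdCAMs 75 of 89 members averaged at least 10 CPM, 17 of them at least 100 CPM, and in tissue the same numbers were 75 and 24. A count was present in every library for 79 members in sdCAMs and 81 in tissue. Per kb of merged exon, the highest levels in tissue were those of Rplp1, an acidic protein of the ribosomal stalk (677 CPM per kb), Rps15 of the small subunit (354 CPM per kb) and Rpl4 of the large subunit (218 CPM per kb). In sdCAMs the highest were Rpl4 (237 CPM per kb), Rplp1 (171 CPM per kb), Rps27l (154 CPM per kb) and Rpl32 (150 CPM per kb). Across the 74 members of at least 10 CPM in both materials the log2 levels had a Pearson r of 0.59 and a Spearman rho of 0.49, over genes that share the same libraries and are not independent.

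Low levels belonged to the pseudogenes, to the paralogs Rpl10l, Rpl3l and Rpl39l, in tissue also to Rpl36al, and to a few ordinary members. Rpl39l averaged 1.70 CPM in sdCAMs and 0.0684 CPM in tissue, and Rpl36al 8.64 CPM and 0.832 CPM. The 5 pseudogenes averaged at most 0.441 CPM in sdCAMs and 0.0759 CPM in tissue. Rpl32l and Rps12l1 had 0 counts in all 30 libraries, and a count of 0 allows up to 0.406 CPM in the smallest sorted library and 0.323 CPM in the smallest tissue library (3 counts, counting error only). Rpl24, a protein of the large subunit, averaged 0.116 CPM in sdCAMs and 0.295 CPM in tissue, and Rps10, a protein of the small subunit, 0.873 CPM and 1.36 CPM. Of the 50-base stretches in annotated Rpl24 transcripts 81.7% also occur in another annotated gene, and of those of Rps18, at 6.67 CPM in sdCAMs and 2.64 CPM in tissue, 79.4%. The median over the 84 protein-coding members was 35.8%, and how reads with several matches were counted is not given in the sources used here. The 27 members with 50 to 90% shared stretches had a median of 61.2 CPM in sdCAMs and the 56 with under 50% a median of 62.9 CPM. The latter include the low paralogs Rpl10l, Rpl3l, Rpl39l and Rpl36al, so these medians cannot show what shared stretches did to counts. That was not tested.

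**Figure D1:**
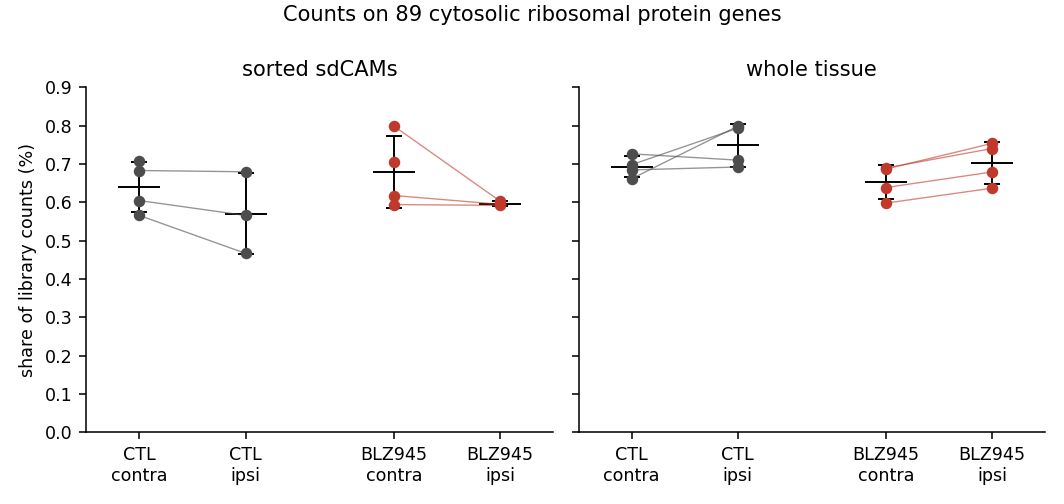
Share of all gene counts that fell on the 89 members, in percent, for sdCAMs (left) and tissue (right). Points are libraries, lines join hemispheres of 1 mouse, and bars are the mean and SD. All libraries lie between 0.467% and 0.799%.

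The first question was whether the pool of ribosomal protein transcripts as a whole changed with stroke or with earlier depletion. Members took 0.640% ± 0.0662 (SD, n = 4) of the counts in CTL contra sdCAMs, 0.571% ± 0.106 (n = 3) in CTL ipsi, 0.679% ± 0.0931 (n = 4) in BLZ945 contra and 0.597% ± 0.00592 (n = 3) in BLZ945 ipsi. In tissue the shares were 0.693% ± 0.0271 in CTL contra, 0.748% ± 0.0553 in CTL ipsi, 0.653% ± 0.0437 in BLZ945 contra and 0.702% ± 0.0544 in BLZ945 ipsi (n = 4 each). The groups overlapped in every case but BLZ945 contra (0.598 to 0.690%) against CTL ipsi (0.692 to 0.798%) in tissue. Within a mouse the sdCAM share was lower on the ipsi side in 6 of 6 mice, where it fell by 0.00206 to 0.195 percentage points, whereas the summed TMM-scaled level of the members was higher on the ipsi side in 4 of those 6 mice, so the direction depended on the scaling. In tissue the share was higher on the ipsi side in 7 of 8 mice and the summed TMM-scaled level in 6 of 8. Whether fewer cells of a type or less RNA per cell lies behind a level cannot be told apart in bulk libraries.

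In sdCAMs the stroke response of single members was next compared. Each gene was tested with edgeR's quasi-likelihood test across all genes passing a minimum summed count, which kept 87 of 89 members (Rpl32l and Rps12l1 were not tested), and called at a Benjamini-Hochberg adjusted p under 0.05. No member was called between ipsi and contra in CTL, in BLZ945 or in their average, where 2.79%, 5.61% and 16.2% of the 18297 genes tested were called. In the average, 4.98% of all genes were called higher and 11.2% lower. At an unadjusted p under 0.05 the members higher and lower on the ipsi side numbered 2 and 4 in CTL, 0 and 2 in BLZ945, and 2 and 5 in the average. Of all 18297 genes, 3346, 4088 and 5759 passed that level in either direction, a larger share than of the 87 members each time. The median log2 fold change of the members in the average was -0.03 beside -0.16 over all genes tested, and library totals in place of TMM moved these medians to -0.19 and -0.32. Among genes of at least 10 CPM the order was reversed, with medians of -0.04 for 75 members and 0.11 for all 9563 genes. DESeq2 called 1 member in CTL (Rps27), 1 in BLZ945 (Rpl22l1) and 4 in the average (Rpl22l1, Rpl41, Rps20 and Rps27, each lower on the ipsi side), where it called 4077 of 15258 genes. With a block for the mouse no member was called, while the all-gene counts went from 510 to 293 in CTL and from 2966 to 1931 in the average.

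Rpl22l1, the paralog of Rpl22, was the member with the largest drop among those of at least 10 CPM. In CTL contra sdCAMs it stood at 16.8, 15.4, 11.8 and 25.02 CPM in A2, A3, A4 and B1, and on the ipsi side at 14.05, 4.28 and 13.1 CPM in A2, A4 and B1. In BLZ945 contra it stood at 15.96, 14.8, 18.9 and 20.8 CPM in C2, C3, C4 and D1, and on the ipsi side at 8.17, 5.77 and 8.44 CPM in C3, C4 and D1. Every one of the 6 mice with both hemispheres had less on the ipsi side; the BLZ945 groups did not overlap and the CTL groups did. The average log2 fold change was -0.98 (SE 0.345, 95% interval -1.71 to -0.24), with an adjusted p of 0.065 by edgeR and 0.00327 by DESeq2. The average of Rpl22l1 in tissue was 0.04 (adjusted p 0.908, edgeR).

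Other small proteins had lower values on the ipsi side of sdCAMs without passing edgeR's threshold. Rps27, a zinc-finger protein of the small subunit and the parent of Rps27l, stood at 102, 74.0, 73.2 and 85.8 CPM in CTL contra and 59.1, 51.9 and 59.4 CPM in CTL ipsi, groups that did not overlap. In BLZ945 it stood at 85.5, 74.6, 108 and 81.9 CPM contra and 68.4, 62.0 and 89.7 CPM ipsi, which overlapped. Its average log2 fold change was -0.41 (adjusted p 0.0738, edgeR), lower in 5 of 6 mice. Rpl41, the smallest protein of the ribosome, was at -0.45 (adjusted p 0.113) and Rps20 at -0.37 (adjusted p 0.107), each lower in 5 of 6 mice. Rps21 was at -0.42 in the average (adjusted p 0.213), with CTL ipsi at 30.1, 29.6 and 30.6 CPM below CTL contra at 57.2, 59.1, 39.2 and 36.9 CPM and the BLZ945 groups overlapping.

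Rpl7l1, Rpl4 and Rpl12, all of the large subunit or related to it, were the highest of the members of at least 10 CPM in the average. Rpl7l1 stood at 157, 170, 163 and 146 CPM in CTL contra, 261, 189 and 206 CPM in CTL ipsi, 154, 155, 187 and 170 CPM in BLZ945 contra and 176, 185 and 199 CPM in BLZ945 ipsi. The CTL groups were apart and the BLZ945 groups overlapped, and 5 of 6 mice were higher on the ipsi side. Its average log2 fold change was 0.31 (SE 0.115, interval 0.07 to 0.56, adjusted p 0.0755 by edgeR). Rpl4 was at 0.24 (adjusted p 0.145), higher in 6 of 6 mice, and Rpl12, at the base of the stalk, at 0.31 (adjusted p 0.313), higher in 5 of 6. Within BLZ945 alone the highest were Rpl12 at 0.31, Rplp0, the scaffold of the stalk, at 0.26 and Rplp1 at 0.25, and the lowest beside Rpl22l1 were Rpl41 at -0.50 and Rps28 of the small subunit at -0.34, with adjusted p from 0.276 to 0.549 for these 5.

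The members varied little beside all genes of at least 10 CPM, which were not matched to them in level. Among genes of at least 10 CPM in sdCAMs, the 75 members had log2 fold changes with an SD of 0.19 in the average, from -0.98 to 0.31, and all 9563 genes an SD of 1.23. Of all 9563 genes the 25 to 75% range was -0.28 to 0.43 and the 5 to 95% range -3.08 to 0.84. For 59 of those 75 members the 95% interval lay within 0.59 on either side of 0 (a fold of 1.51), as for 17.4% of all genes of that level. In tissue the SD was 0.06 for 75 members and 0.19 for 10228 genes, and the interval of each of the 75 lay within the same bounds, as for 93.6% of all genes of that level. The endothelial list fell in 6 of 6 genes, the oligodendrocyte list in 7 of 7, the astrocyte list in 5 of 7 and the choroid plexus list in 4 of 6 between sorted contra and ipsi, and the sdCAM list rose in 8 of 10. Their part in the member values was not tested.

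**Figure D2:**
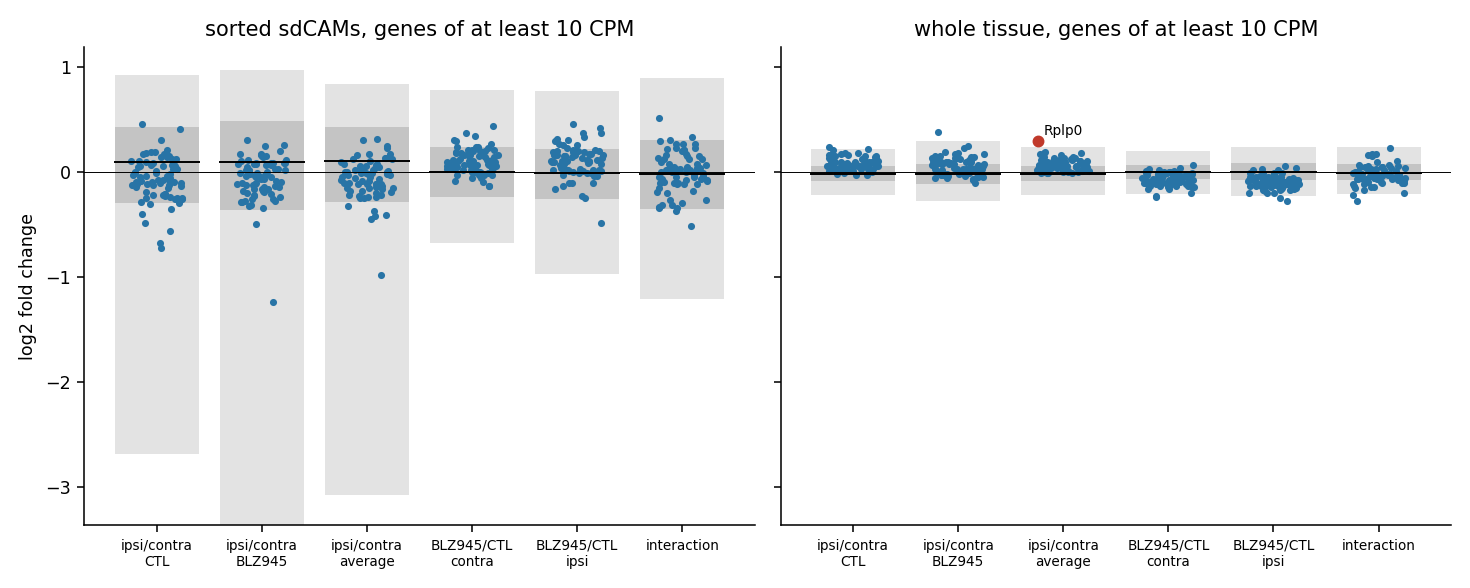
Log2 fold changes of members of at least 10 CPM (points) in each comparison, sdCAMs left and tissue right, over the 5 to 95% range (light), the 25 to 75% range (dark) and the median (line) of all genes of at least 10 CPM. Red marks a member called by edgeR, which was Rplp0 at 0.29 in tissue, and Rps27l lies under 10 CPM there and is not drawn.

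In tissue the stroke response was small and mostly upward, and 2 members were called. Of 84 members tested (all but Rpl10l, Rpl32l, Rpl6l, Rps12l1 and Rps3a2), 0 were called in CTL and 0 in BLZ945, where edgeR called 0.49% and 1.36% of 18968 genes, and the smallest adjusted p of a member was 0.311 and 0.0904. In the average, 2 of 84 members rose, or 2.38%, beside 3.05% of all genes called in either direction and 2.53% called higher. The share of members called was thus near that of all genes. At an unadjusted p under 0.05 members higher and lower on the ipsi side numbered 4 and 0 in CTL, 6 and 0 in BLZ945, and 10 and 1 in the average. Of all 18968 genes, 1182, 2057 and 2705 passed that level in either direction. The log2 fold change was above 0 for 73 of 84 members in the average with a median of 0.06, beside 47.7% of all genes and a median of -0.01. With the other reading of A3's hemispheres the median of the members was 0.02. With a block for the mouse, the all-gene counts rose from 93 to 250 in CTL, 258 to 785 in BLZ945 and 578 to 1344 in the average, and 1 member (Rplp0) was then called in BLZ945 and 3 (Rplp0, Rps2 and Rps27l) in the average.

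Rplp0, which anchors the stalk that recruits elongation factors and is often used as a reference gene in quantitative PCR, rose on the ipsi side of tissue. It stood at 30.6, 28.9, 27.6 and 26.6 CPM in CTL contra and 32.1, 34.7, 28.3 and 36.5 CPM in CTL ipsi. In BLZ945 it stood at 24.3, 26.03, 24.1 and 31.3 CPM contra and 35.9, 34.4, 30.7 and 36.6 CPM ipsi. All 8 mice were higher on the ipsi side, although the groups overlapped in both treatments. The average log2 fold change was 0.29 (SE 0.072, interval 0.14 to 0.45, adjusted p 0.0311 by edgeR), from 0.21 in CTL (adjusted p 0.815) and 0.38 in BLZ945 (adjusted p 0.0904, and 0.0277 with the mouse block), and the difference between the treatments was 0.17 (adjusted p 1). The log2 fold change of Rplp0 in sdCAMs was 0.23 (adjusted p 0.366).

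Rps27l, the paralog of Rps27 and a known p53 target, rose the most in tissue. It stood at 4.99, 4.50, 5.05 and 4.44 CPM in CTL contra and 7.03, 7.37, 6.01 and 8.32 CPM in CTL ipsi, and at 4.61, 3.45, 5.68 and 5.15 CPM in BLZ945 contra and 7.65, 5.41, 6.73 and 7.99 CPM in BLZ945 ipsi. All 8 mice were higher on the ipsi side, the CTL groups did not overlap, and the BLZ945 groups overlapped through C3 ipsi and C4 contra. The average log2 fold change was 0.58 (SE 0.127, interval 0.31 to 0.84, adjusted p 0.0166 by edgeR), from 0.60 in CTL and 0.55 in BLZ945. In sdCAMs Rps27l was at -0.19 (adjusted p 0.601).

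Both calls depended on which mice entered the fit and on the labelled hemispheres of A3. Neither Rplp0 nor Rps27l was called without A2, A3, B1 or C2, Rps27l was the one called without C3 or C4, Rplp0 the one called without D1, and both were called without A4. With the hemispheres of A3 as the count table names them, the average was 0.23 for Rplp0 (adjusted p 0.293) and 0.40 for Rps27l (adjusted p 0.353), and 1 of 18968 genes was called. A3 then stood lower on the ipsi side for Rplp0 and for Rps27l. The next member was Rps2 of the small subunit, higher in 8 of 8 mice, with contra at 91.7 to 107 CPM and ipsi at 99.4 to 128 CPM, a log2 fold change of 0.19 and an adjusted p of 0.11. Within CTL the highest members were Rpl18 at 0.24 and Rps2 at 0.22, and within BLZ945, after Rplp0, Rps16 at 0.25 and Rps13 at 0.23, none past the threshold. In the same comparison of tissue, Gfap, Cdh5, Pecam1, Plac8, S100a9 and Stab1 rose and P2ry12 and Siglech fell, and their part was not tested.

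Whether macrophages that had returned after BLZ945 differed from CTL was tested in each hemisphere, and edgeR called 0 members and 0 genes (0%) in each of the 4 comparisons. At an unadjusted p under 0.05 there were 1133 genes in contra and 1034 in ipsi sdCAMs and 616 and 858 in tissue, and DESeq2 called 44, 128, 0 and 1. In sdCAMs the members at an unadjusted p under 0.05 numbered 2 higher in contra and 1 higher in ipsi, and none was lower. DESeq2 called 0 members in these comparisons as well. The median log2 fold change of the members was 0.09 in contra and 0.11 in ipsi, beside 0 over all genes, and without mouse A4 the ipsi median was -0.02. In contra, microglia markers summed to 7234 to 13220 CPM in BLZ945 and 13905 to 19252 CPM in CTL, without overlap. Choroid plexus markers summed to 1429 to 37713 CPM and 30.7 to 9077 CPM, which overlapped. In ipsi the microglia ranges overlapped, and oligodendrocyte markers summed to 229 to 322 CPM in BLZ945 and 349 to 844 CPM in CTL. The part of these cells in the member values was not tested. The highest member of at least 10 CPM was Rpl15 of the large subunit in contra (0.44, interval 0.01 to 0.88, adjusted p 0.759) and Rps21 in ipsi (0.46, interval -0.25 to 1.17, adjusted p 0.912). The lowest was Rpl10a in contra (-0.14, interval -0.64 to 0.37) and Rpl22l1 in ipsi (-0.49, interval -1.58 to 0.60). Intervals stayed within 0.59 on either side of 0 for 45 of 87 members in contra and 21 of 87 in ipsi, and for the rest the interval did not exclude a change of that size.

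In tissue most members had a log2 fold change below 0 in BLZ945 against CTL, and none was called. It was below 0 for 69 of 84 members in contra (median -0.07) and for 74 of 84 in ipsi (median -0.09). Over all genes the medians were 0.00, and 49.9% in contra and 50.8% in ipsi were above 0. The members share the same libraries and are not independent. Their summed level overlapped between treatments, at 6295.5 to 6945.5 CPM in BLZ945 contra and 6673.8 to 7359.4 CPM in CTL contra. In ipsi it ran from 6555.5 to 7256.9 CPM in BLZ945 and from 6902.1 to 7857.8 CPM in CTL. At an unadjusted p under 0.05, 2 members were lower in contra (Rpl10 and Rps16) and 11 lower in ipsi, none was higher, and the smallest adjusted p was 1 and 0.958 by edgeR. The largest differences of members of at least 10 CPM were Rps16 at -0.23 in contra (interval -0.42 to -0.04) and Rpl39 of the large subunit at -0.27 in ipsi (interval -0.52 to -0.03). Leaving out each mouse moved the median from -0.09 to -0.04 in contra and from -0.13 to -0.06 in ipsi.

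No member passed the test for a different stroke response in the 2 treatments. EdgeR's interaction test called 0 members and 0 genes (0%) in sdCAMs and in tissue, with 912 and 386 genes at an unadjusted p under 0.05, and DESeq2 called 48 and 0 genes. Members at an unadjusted p under 0.05 numbered 0 in sdCAMs and 1 in tissue (Rpl23a), and DESeq2 called 0 members. In sdCAMs the difference of the responses ran from -0.52 for Rpl22l1 (interval -1.95 to 0.92) to 0.52 for Rps21 (interval -0.42 to 1.45). In tissue it ran from -0.27 for Rpl39 (interval -0.62 to 0.07) to 0.23 for Rps16 (interval -0.04 to 0.49). The sdCAM intervals are wide, and 3 of 87 lay within 0.59 on either side of 0, beside 75 of 84 in tissue.

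**Figure D3:**
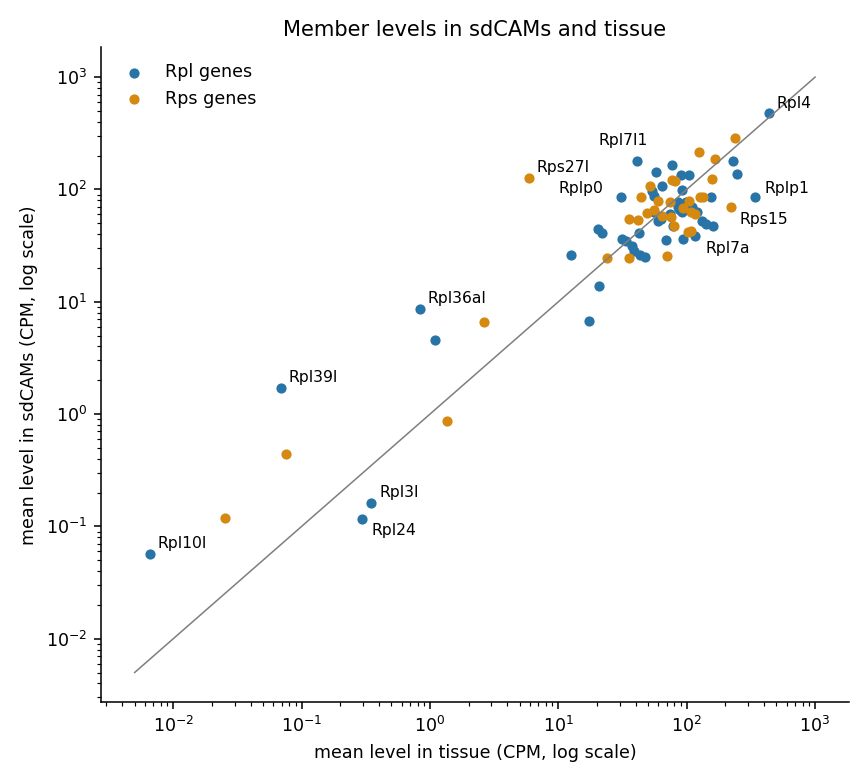
Mean level of each member in tissue (x) and in sdCAMs (y), in CPM scaled by TMM within each table, both axes logarithmic, with the line of equal level. Members at 0 in either material are not drawn. Rps27l lies at 5.90 CPM in tissue and 126 CPM in sdCAMs, and Rplp1 at 338 CPM and 85.4 CPM.

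Between sdCAMs and tissue the members differed far more than between hemispheres or treatments. All 30 libraries were placed in 1 edgeR fit, with 85 members tested. The sorted cells were amplified with a low-input kit, so cell type and library preparation cannot be told apart. In contra 28 of 85 members were higher in sdCAMs and 40 lower, and among all 19389 genes tested 33.2% were higher and 39.4% lower. In ipsi 22 were higher and 49 lower, beside 27.8% and 46.3% of all genes. The members' shares in contra, 68 of 85 together, were thus above those of all genes on the lower side and near them on the higher side. The 22 members higher in ipsi were also higher in contra, the 40 lower in contra were also lower in ipsi, and 0 were called in opposite directions. This overlap was not counted over all genes, so it is not shown to be particular to the members. Of large-subunit genes 15 were higher and 26 lower of 51 in contra, and of small-subunit genes 13 and 14 of 34.

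Among members of at least 10 CPM in sdCAMs, those most above tissue in contra were Rps27l, Rpl7l1, Rplp0 and Rpl32. Rps27l ran from 66.8 to 232 CPM in sdCAMs with a median of 117 CPM, and from 3.45 to 8.32 CPM in tissue with a median of 5.54 CPM. Its log2 difference was 4.68 in contra (interval 4.29 to 5.06, adjusted p 8.94e-18 by edgeR) and 3.85 in ipsi (adjusted p 3.61e-16). Rpl7l1 averaged 180 CPM in sdCAMs and 40.9 CPM in tissue, a log2 difference of 1.92 in contra and 2.08 in ipsi. Rplp0 averaged 85.0 CPM and 30.5 CPM, differences of 1.41 and 1.29, and Rpl32, a large-subunit protein, 144 CPM and 57.7 CPM, differences of 1.23 and 1.11. None of the sdCAM libraries reached as low as the tissue libraries for Rps27l or Rplp0.

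On the other side stood a stalk protein and several core proteins. Rplp1, the partner of Rplp0 in the stalk, ran from 64.6 to 103 CPM in sdCAMs and from 303 to 393 CPM in tissue, a log2 difference of -2.12 in contra (interval -2.32 to -1.92, adjusted p 1.08e-16 by edgeR) and -2.14 in ipsi. The log2 difference of Rplp2, the other acidic stalk protein, was -0.18 in contra (adjusted p 0.0832) and -0.40 in ipsi (adjusted p 9.79e-04), so the 3 stalk genes did not move together. Rps15 averaged 70.1 CPM in sdCAMs and 223 CPM in tissue, with log2 differences of -1.80 and -1.84, and Rpl7a 47.3 CPM and 161 CPM, with -1.76 and -2.08. Rpl27a (-1.67), Rpl17 (-1.59), Rpl12 (-1.54), Rpl28 (-1.45) and Rps12 (-1.41) followed on the log2 scale in contra. The most abundant member by count, Rpl4, did not pass the threshold at -0.08 in contra (interval -0.23 to 0.07) and 0.04 in ipsi (interval -0.12 to 0.20), nor did Rps3, at the entry of the messenger RNA channel (0.17 and 0.07), or Rps14 (0.08 and -0.09). Rpl10, which joins the large subunit last, was higher in sdCAMs by 0.69 in contra and 0.50 in ipsi, and Rps6, the substrate of the S6 kinases, by 0.60 and 0.41. Lower in sdCAMs were Rpl13a (-1.26 and -1.91), Rpsa, also known as the laminin receptor (-0.86 and -0.97), Rpl3 near the peptidyl transferase centre (-0.52 and -0.45), Rps2 (-0.50 and -0.61) and Rpl41 (-0.33 and -0.84), each past edgeR's threshold in both hemispheres.

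**Figure D4:**
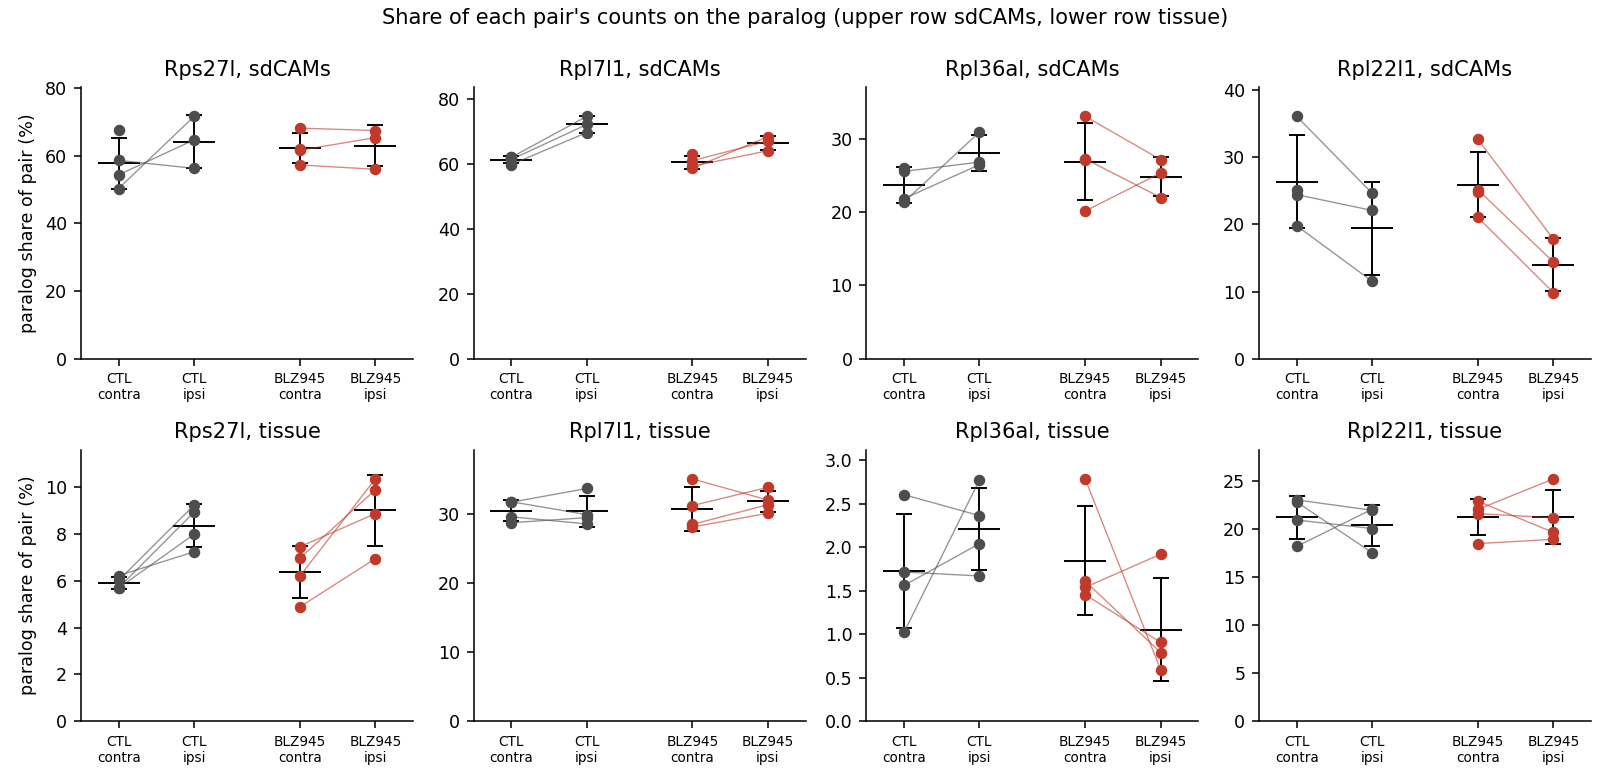
Share of a pair's summed counts that fell on the paralog, in percent, by group, for sdCAMs (upper row) and tissue (lower row). Points are libraries, lines join hemispheres of 1 mouse, bars are the mean and SD, and the y axes differ between panels. Rps27l ranges from 50.3 to 71.7% in sdCAMs and from 4.88 to 10.3% in tissue.

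The balance between paralog and parent set sdCAMs and tissue apart. These shares are fractions of counts, not corrected for length, and are given as a description. Rps27l took 50.3 to 71.7% of the counts of Rps27l and Rps27 in the 14 sorted libraries, with a median of 61.8%, and 4.88 to 10.3% in the 16 tissue libraries, with a median of 7.10%. Rpl7l1 took 58.7 to 74.7% of its pair in sdCAMs and 28.1 to 35.1% in tissue. Rpl36al took 20.2 to 33.1% in sdCAMs and 0.589 to 2.78% in tissue. For these 3 pairs the ranges of the materials did not overlap. Rpl22l1 took 9.85 to 36.1% in sdCAMs and 17.6 to 25.2% in tissue, ranges that overlapped. Per kb of merged exon, Rps27l was at 154 CPM per kb in sdCAMs and 7.23 CPM per kb in tissue, whereas Rps27 was at 73.7 and 70.5 CPM per kb. Rpl7l1 was at 51.5 and 11.7 CPM per kb and Rpl7 at 36.4 and 34.2 CPM per kb. Rpl36al was at 6.38 and 0.615 CPM per kb and Rpl36a at 15.1 and 28.6 CPM per kb. The paralog's level thus differed more than the parent's in the first 2 pairs, and both differed in the third.

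For 4 pairs the share also lay on the same side in every mouse of 1 material when hemispheres were compared. In sdCAMs the Rpl7l1 share was 59.9 to 62.1% in CTL contra and 69.7 to 74.7% in CTL ipsi, and 58.7 to 63.2% in BLZ945 contra and 64.1 to 68.5% in BLZ945 ipsi. It was higher on the ipsi side in 6 of 6 mice, by 4.77 to 12.6 percentage points, and the hemispheres did not overlap in either treatment. The Rpl22l1 share was lower on the ipsi side in 6 of 6 mice, where it fell by 2.36 to 14.9 points, apart in BLZ945 (21.1 to 32.7% contra, 9.85 to 17.8% ipsi) and overlapping in CTL (19.8 to 36.1% and 11.54 to 24.6%). In tissue the Rps27l share was 5.69 to 6.22% in CTL contra and 7.23 to 9.23% in CTL ipsi, and 4.88 to 7.45% and 6.94 to 10.3% in BLZ945, higher on the ipsi side in 8 of 8 mice by 1.02 to 4.15 points. The sdCAM Rps27l share went up in 3 mice and down in 3, and the tissue Rpl7l1 share up in 5 and down in 3. With the 2 degraded libraries included, the mean Rpl7l1 share of CTL ipsi sdCAMs was 59.2% rather than 72.2%. Rpl39l took 0 to 17.8% of its pair in sdCAMs and 0 to 2.61% in tissue, and Rpl3l and Rpl10l at most 0.901% and 0.388% in any library. The tissue Rpl3l share was lower on the ipsi side in 8 of 8 mice, where it fell by 0.0319 to 0.333 points, from at most 9 Rpl3l counts in a tissue library.

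At the annotated transcription start the members were compared with all genes for the pyrimidine run of the TOP motif, on the gene's own strand. The searched motif was a run of at least 5 letters C or T that covers the annotated start. It was present in 21 of the 65 members found in RefSeq's start regions (32.3%) and in 3191 of 27025 genes (11.8%). Rps27l, which differed most between sdCAMs and tissue, and its parent Rps27 are shown as 30 bases around the RefSeq start on GRCm38.p6, with a run at the start in capitals.
Rps27 (chr3:90213634-90213663, minus strand): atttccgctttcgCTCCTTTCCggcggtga
Rps27l (chr9:66946071-66946100, plus strand): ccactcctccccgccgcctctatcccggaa
The run was found in 6 of 20 members higher in contra sdCAMs than in tissue (30.0%) and 8 of 30 lower (26.7%). A window without the run says only that these letters are not at this annotated start.

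The machinery around the ribosome was read from gene lists fixed with earlier results of these data known. Ribosome biogenesis genes, the 48 nucleolar and nuclear factors that process ribosomal RNA and assemble the subunits, were higher in ipsi than in contra sdCAMs. In the average 10 of 48 rose and 0 fell, beside 4.98% and 11.2% of all genes, with a median log2 fold change of 0.52. Those that rose were Tsr1 (1.48), an assembly factor of the small subunit, Heatr1 (1.13) and Wdr43 (0.82) of its early precursor, Ltv1 (0.59), the nucleolar proteins Ncl (0.72) and Nop56 (0.75), the methyltransferases Ftsj3 (0.96) and Nop2 (0.90), and Wdr12 (0.85) and Nop16 (0.66) of the large subunit's assembly. The summed level of the list was 2368 to 2940 CPM in contra and 3114 to 4552 CPM in ipsi, without overlap, and higher in 6 of 6 mice. In CTL alone 5 rose (Ftsj3, Ncl, Nmd3, Tsr1 and Wdr12), beside 0.426% of all genes called higher, and in BLZ945 alone 0 (smallest adjusted p 0.0545 by edgeR). With all 16 sorted libraries 1 rose (Tsr1), without C4 5 and without B1 6, and with library totals in place of TMM 6 rose, with a median of 0.36. The endothelial and oligodendrocyte markers fell in the same comparison, as given above, and their part was not tested.

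In tissue 4 of the 48 biogenesis genes rose and 0 fell in the average, beside 2.53% of all genes called higher, with a median of 0.11. They were Ddx21 (0.46), a nucleolar helicase, Eif6 (0.29), which keeps the subunits apart until maturation, Heatr1 (0.26) and Ftsj3 (0.24). Without B1 only Ddx21 rose, without A2, A3, C2 or D1 2 genes did in each case, and 0 did with the other reading of A3's hemispheres or when a change of more than 0.59 on the log2 scale was required. The summed level was higher on the ipsi side in 7 of 8 mice.

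For the lists that follow, the shares of all genes called in the average were 4.98% higher and 11.2% lower in sdCAMs and 2.53% higher in tissue. Of 78 mitochondrial ribosomal protein genes, which serve the separate ribosome of the mitochondrion, 2 fell in sdCAMs, a smaller share than of all genes. These were Mrps6 (by 1.72 on the log2 scale) and Mrpl53 (by 0.77), and Mrps6 rose in tissue (0.67). Of 21 tested elongation factor and other TOP genes, Eif4b, an initiation factor, rose in sdCAMs (0.58) and Pabpc1, the poly(A)-binding protein, in tissue (0.26). Of 19 tested genes of the mTORC1 and LARP1 axis, Larp1, which binds TOP messenger RNAs (0.63), Larp4 (1.13) and Tsc2, a brake on mTORC1 (0.67), rose in sdCAMs, 3 genes beside 4.98% of all genes called higher. The median log2 fold change of these 19 was 0.23, beside -0.16 over all genes tested and 0.11 over genes of at least 10 CPM. Their summed level was higher on the ipsi side in 6 of 6 mice, by 59.6 to 310.0 CPM. In tissue 0 of 20 were called by edgeR, and the smallest adjusted p was 0.051. Among 11 genes around Myc, a driver of ribosome production, Myc rose in tissue (0.78, adjusted p 0.0196) and stood at 0.92 in sdCAMs (adjusted p 0.0733). Of 15 tested quality control genes, Map3k20, a sensor of stalled ribosomes, fell by 1.47 in sdCAMs. Fau and Rack1 were not called in either material, Rack1 standing at 0.36 in sdCAMs (adjusted p 0.119) and 0.18 in tissue (adjusted p 0.0664).

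**Figure D5:**
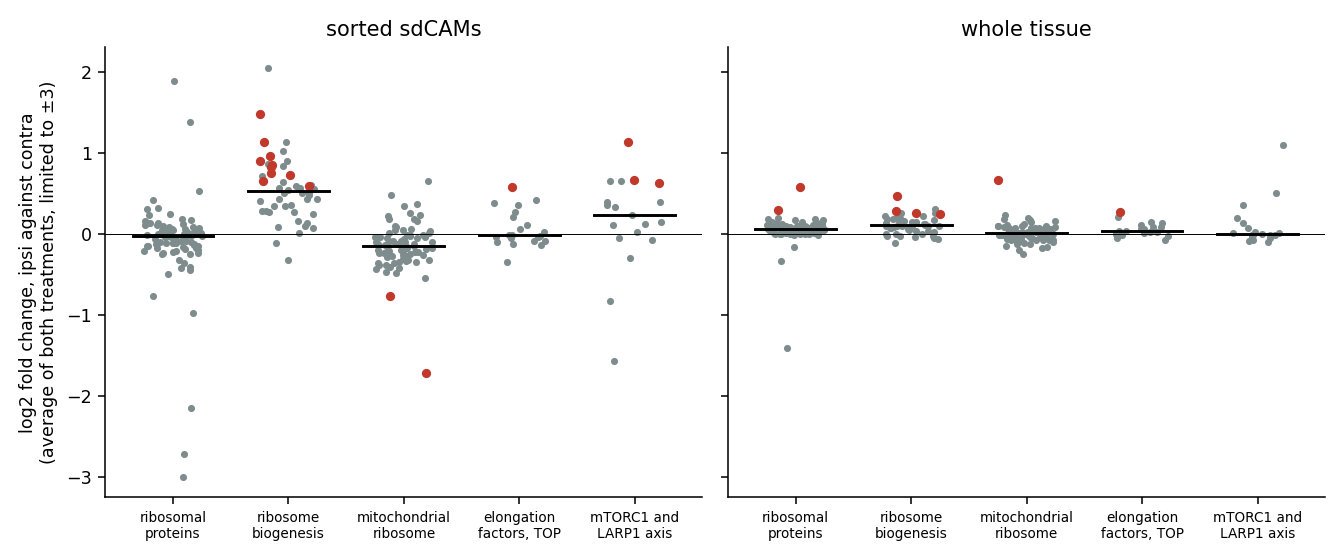
Log2 fold change of ipsi against contra, averaged over treatments, for the ribosomal protein members and 4 related lists in sdCAMs (left) and tissue (right), with values beyond 3 drawn at 3. Red points passed edgeR's threshold and lines are list medians, which were -0.03 for members and 0.52 for ribosome biogenesis in sdCAMs.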

How the data were processed

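Per the labels and the study's methods, the authors sequenced single reads of 50 cycles (Nextera XT libraries, sorted cells amplified with the SMARTer ultra low input kit), aligned them with STAR 2.7.11a and deposited raw counts per gene from featureCounts 2.0.8; bcl2fastq 2.20 and DESeq2 1.46.0 are also named in the submitters' processing notes. The study's methods name GENCODE annotation with mm10 or GRCm39, by date of experiment; which applies to these libraries, strand and the handling of multiple matches are not given in the sources used here.

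The deposited counts of 14 sdCAM and 16 tissue libraries were fitted per material with edgeR 4.0.16 (R 4.3.3, limma 3.58.1), one mean per treatment and hemisphere, TMM scaling and a summed count of at least 7 (sdCAMs) or 8 (tissue). P-values are two-sided and Benjamini-Hochberg adjusted over all genes. DESeq2 1.42.0, other scalings, filters, a mouse block and leaving out each mouse were alternatives. Named members were those called or, where none was, the 3 lowest and 3 highest log2 fold changes among members of at least 10 CPM, with the stalk genes, Rpsa, Rps6, Rps2, Rps3, Rpl3, Rpl10, Rpl13a, Rpl41 and the paralog pairs by role, and up to 3 called genes of each list by smallest p. Other genes named were chosen after their values were seen. The members and lists were chosen with earlier results of these data known. The test script was tested on simulated data.

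Hemispheres come from the same mouse, which gives the pairing. The median correlation of their deviations from the group means was 0.0957 in sdCAMs (6 mice) and 0.262 in tissue (8 mice). Scaled counts of no 2 replicates agreed within sampling noise. Promoter starts are RefSeq's on GRCm38.p6.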

Additional observations from a re-analysis of the deposited data

Results flagged for a closer look

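Among the members, 3 values of levels and pair shares stood far from the other libraries of their group of 4, among 96 such groups examined, of which chance would place about 5% that far. The Rpl36al level in BLZ945 contra tissue of mouse C2 was 1.39 CPM, against 0.651 to 0.732 CPM in the other mice, and in the same library Rpl36al took 2.78% of its pair. The Rps27l level in CTL contra sdCAMs of mouse A3 was 155 CPM, against 102 to 104 CPM in the other mice. The 2 sorted libraries left out as degraded still held counts on members, 337 for A3 ipsi (0.623% of the library) and 341 for C2 ipsi (0.618%), shares within the range of the libraries used.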

How the results depend on the processing

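In sdCAMs the count of members called rose from 0 under several alternatives, each new call being lower on the ipsi side. DESeq2 called 1 in CTL, 1 in BLZ945 and 4 in the average, DESeq2 size factors in edgeR 2 in the average, library totals 5 (Rpl22l1, Rpl37a, Rpl41, Rps20 and Rps27) and filterByExpr 1. In tissue DESeq2 called 1 in BLZ945. For the average in tissue, a further minimum of 0.59 in log2 fold change left 0, the other reading of A3's hemispheres left 0, and leaving out each mouse gave 0 to 2. The replicate block for the mouse called 1 in BLZ945 tissue and changed no other call apart from adding Rps2 in the average and removing 1 member in ipsi between sdCAMs and tissue. The cause of these shifts was not tested, apart from the fewer mice or the stricter rule.

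Without the 20 most abundant other genes the members' share was 0.730% in CTL contra sdCAMs, 0.698% in BLZ945 ipsi sdCAMs and 0.730% in CTL contra tissue, as the denominator shrinks. With all 16 sorted libraries, added after seeing the data, mean paralog shares became 48.2% for Rps27l, 59.2% for Rpl7l1 and 21.1% for Rpl36al in CTL ipsi and 62.4% for Rpl7l1 in BLZ945 ipsi, and the other reading of A3 gave 6.48% for Rps27l in CTL contra tissue. No value changed sign past a threshold. The tables hold no mitochondrially encoded genes, so leaving these out changed nothing.

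Limits are the 3 sorted ipsi libraries per treatment, the absence of mice without stroke, the low-input amplification of sorted cells alone and the unknown handling of reads that match several members or their pseudogenes.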
